A study of Homo sapiens with 13 samples.

Results

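The promoters of the cytosolic ribosomal protein genes were compared between G1 and mitosis by ATAC-seq, which reads out open chromatin through the insertion of sequencing adapters by the transposase Tn5. Members were all deposited peaks that overlap a transcription start site (TSS) of a protein-coding gene. Starts were taken from the GRCh37 (hg19) version of GENCODE release 44. The genes were those named RPL or RPS with a number and an optional A, X or L, together with RPLP0, RPLP1, RPLP2, RPSA and FAU. The rule matched 82 genes with 840 transcripts, and 79 of these genes had a peak at a TSS. They gave 84 member peaks of 129347 peaks in the table, 51 for the large and 33 for the small subunit of the ribosome, because RPL6, RPL10, RPL27A, RPL36 and RPS29 had 2 peaks each. All 84 passed the filter on low values.

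The cells were T98G, an established human glioblastoma line, with 3 libraries per phase. G1 cells were kept for 72 h without serum. M-phase cells spent 48 h without serum and 36 h in medium that contained serum and nocodazole, which depolymerizes microtubules and arrests cells in mitosis, before the rounded cells were shaken off. Serum was thus present in the M-phase arm only, the G1 libraries were sequenced on the HiSeq alone, and the M-phase replicates have HiSeq and NextSeq runs that the deposited columns do not separate. Phase, serum and platform cannot be told apart. Directions follow the names of the deposited value columns. The authors' own log2 column is named as M-phase over G1 but runs the opposite way to these columns, and which name is in error was not settled: if it is that of the value columns, every direction given here turns around. The labels do not say whether replicates were separate cultures, so that p-values measure the spread between these libraries, which may be technical.

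Each eukaryotic ribosome joins a small subunit, which reads the mRNA, to a large subunit, which forms the peptide bonds. Their proteins are encoded by single genes scattered over the chromosomes, which have to be expressed in matched amounts in every growing cell. Most of these promoters are compact and lack a TATA box. Transcription typically starts at a C inside a run of pyrimidines, the TCT initiator, and the resulting mRNAs begin with the 5′ terminal oligopyrimidine (TOP) tract through which growth signals control their translation.

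The sequences around the annotated start are shown for members from both ends of the range of change described further on, with and without these features. Each runs 5′ to 3′ on the strand of the gene, from 60 bases before the start through the first 10 transcribed bases, with GRCh37 coordinates. Capitals mark the TCT initiator (CTTT with a pyrimidine on either side, its first C within 5 bases of the annotated start) and the ETS motif CCGGAAG on either strand. The first 4 promoters belong to the peaks with the largest rise.

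RPL3, chr22:39715619-39715688, minus strand: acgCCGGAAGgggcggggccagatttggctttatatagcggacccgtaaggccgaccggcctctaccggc
RPL41, chr12:56510357-56510426, plus strand: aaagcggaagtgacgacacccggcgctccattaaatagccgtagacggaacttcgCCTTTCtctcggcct
RPL26, chr17:8286502-8286571, minus strand: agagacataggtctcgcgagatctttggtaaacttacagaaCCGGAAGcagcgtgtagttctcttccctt
RPS15, chr19:1438335-1438404, plus strand: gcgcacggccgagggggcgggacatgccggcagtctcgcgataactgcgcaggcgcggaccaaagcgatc

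The next 3 belong to other peaks that were higher in M-phase and each hold the initiator.

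RPLP2, chr11:809907-809976, plus strand: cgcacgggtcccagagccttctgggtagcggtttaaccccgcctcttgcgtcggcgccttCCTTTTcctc
RPS19, chr19:42364265-42364334, plus strand: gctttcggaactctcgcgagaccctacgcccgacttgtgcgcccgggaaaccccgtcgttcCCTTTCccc
FAU, chr11:64889597-64889666, minus strand: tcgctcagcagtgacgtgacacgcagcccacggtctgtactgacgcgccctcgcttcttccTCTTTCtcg

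The last 4 belong to the peaks with the most negative fitted change, none of which passed the test.

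RPL36A, chrX:100645939-100646008, plus strand: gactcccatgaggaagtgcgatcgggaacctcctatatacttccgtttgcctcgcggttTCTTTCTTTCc
RPS7, chr2:3622790-3622859, plus strand: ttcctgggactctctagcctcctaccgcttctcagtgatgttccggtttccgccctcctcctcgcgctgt
RPSA, chr3:39448151-39448220, plus strand: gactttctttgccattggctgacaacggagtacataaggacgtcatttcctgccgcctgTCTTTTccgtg
RPS13, chr11:17099205-17099274, minus strand: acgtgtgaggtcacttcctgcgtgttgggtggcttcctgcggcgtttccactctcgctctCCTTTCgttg

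The initiator was thus found in RPL41 but not in RPL3, RPL26 or RPS15 among the largest rises, and in RPL36A, RPSA and RPS13 but not in RPS7 among the smallest changes. Over all 82 genes, 48 promoters (58.5%) held it, against 517 of 19894 protein-coding promoters (2.6%), which include the ribosomal protein genes. It was present at 14 of 20 listed translation factors and other genes with TOP mRNAs, VIM among them (70.0%). The shares were 3 of 31 for ribosome assembly factors (9.68%) and 1 of 78 for mitochondrial ribosomal proteins (1.28%). From 250 bases before to 50 after the start, on both strands, the ETS motif matched 28 of the 82 promoters (34.1%, against 14.2% of all promoters) and the YY1 motif ATGGCG 26 (31.7%, against 14.7%). The SP1 box GGGCGG (62.2% against 61.4%), the NF-Y box CCAAT (32.9% against 36.0%) and the E box CACGTG (6.1% against 8.76%) were about as frequent as elsewhere, and the consensus palindrome of NRF1 matched 14.6% against 8.43%. TATAAA between 40 and 20 bases before the start, on the strand of the gene, was found in 4 of the 82 (4.88%, against 3.9%). A match is a stretch of letters and was not tested for binding.

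**Figure D1:**
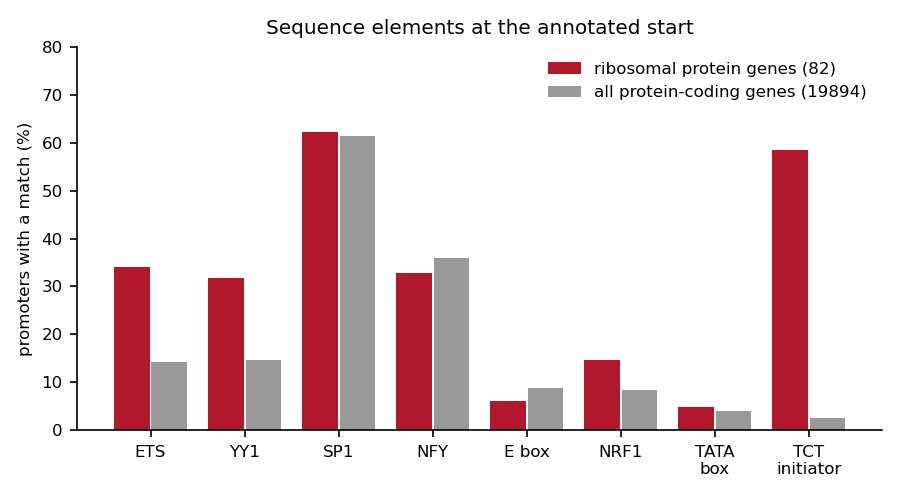
Share of promoters with a match to each sequence element (y axis, percent) for 82 ribosomal protein genes (red) and 19894 protein-coding genes (grey). The TCT initiator stands out, at 58.5% against 2.6%, while SP1 and NF-Y boxes are about as frequent in both.

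The values are the authors' read counts in peaks, scaled to the smallest library. Their sums over all peaks still differed, from 4191845 to 5092426 in G1 and from 5475345 to 6000423 in M-phase. G1 replicate 3 had the highest G1 sum and was the highest G1 library at 63 of the 84 member peaks. Of the marker genes listed for the line, VIM, CD44, FN1, SOX2 and OLIG2 had a peak at a TSS while NES and GFAP had none. The SOX2 peak was weak, with means of 11.6 in G1 and 7.7 in M-phase, and did not pass the filter on low values. EPCAM, an epithelial marker, also had one, with means of 91.6 in G1 and 106.8 in M-phase. PTPRC, CD3E and RBFOX3 had none, and PECAM1 was not in the annotation used. A peak at a TSS says nothing on expression.

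The ribosomal protein promoters were accessible in both phases and, on the authors' scaling, mostly more so in M-phase than in G1. In limma with a mean-variance trend on log2(scaled count + 8), 63 of 84 member peaks (75.0%) were higher in M-phase at an adjusted p under 0.05 and 0 were lower. Among all 13131 promoter peaks of protein-coding genes that were tested, 47.1% were higher and 5.29% lower, and among all 73121 peaks tested 14.3% were higher and 13.1% lower. At an unadjusted p under 0.05 the same fit had 65 higher and 0 lower members, but the share of promoter peaks at that threshold was not computed. The median log2 change was 0.81 (1.75-fold) for the members, with quartiles of 0.50 and 1.06, against 0.45 for all promoter peaks and 0.02 for all peaks. Of the members, 60 were called and at least 1.5-fold higher, against 40.7% of promoter peaks, and 27 were called and at least 2-fold higher, against 16.2%.

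The rise depended in size on how the libraries are scaled. With TMM scaling 61 members were higher, against 42.1% of promoter peaks, and 0 were lower, against 8.53%. When each library was given an equal total in peaks, the median of all peaks moved to -0.23, 46 members were higher, against 32.2% of promoter peaks, and 5 were lower, against 16.2%. Under a trended loess normalization, which levels change against abundance, 38 were higher, against 22.5% of promoter peaks, and 8 were lower, against 17.6%. The members' median exceeded that of the promoter peaks by 0.36 in the reported, TMM and equal-total scalings. These scalings differ by 1 factor per library, which moves both medians together, so that their equal distance follows from the scaling. Under loess, which is not such a factor, the distance was 0.31. A total of 35 of the 84 members were higher in each of the 14 settings fitted, against 20.2% of the 12537 promoter peaks tested in every setting. Among the 35 were RPL3, RPL41, RPL26, RPS15, RPS2, RPLP0, RPL19, FAU, RPL5 and RPS3.

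The same contrast was seen library by library. The members' median log2(scaled count + 8) differed from that of all promoter peaks by -0.05, -0.09 and 0.07 in G1 replicates 1, 2 and 3, and by 0.19, 0.30 and 0.24 in M-phase replicates 1, 2 and 3. The M-phase values all lay above the G1 values. The 84 peaks cover 0.196% of all bases in peaks and took, as mean ± SD of 3 libraries, 0.266% ± 0.0157 of the scaled counts in G1 and 0.370% ± 0.0142 in M-phase, a share that does not depend on library scaling. The matching share of all promoter peaks was not computed. Promoter peaks in general also lay above all peaks, with median changes of 0.12 and -0.23 under equal totals. At 63 members every M-phase library exceeded every G1 library, as was the case at 52.3% of promoter peaks, and at 0 members every M-phase library lay below every G1 library, against 7.76% of promoter peaks. The groups overlapped at 21 members, and at 19 of these G1 replicate 3 was the highest G1 library.

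**Figure D2:**
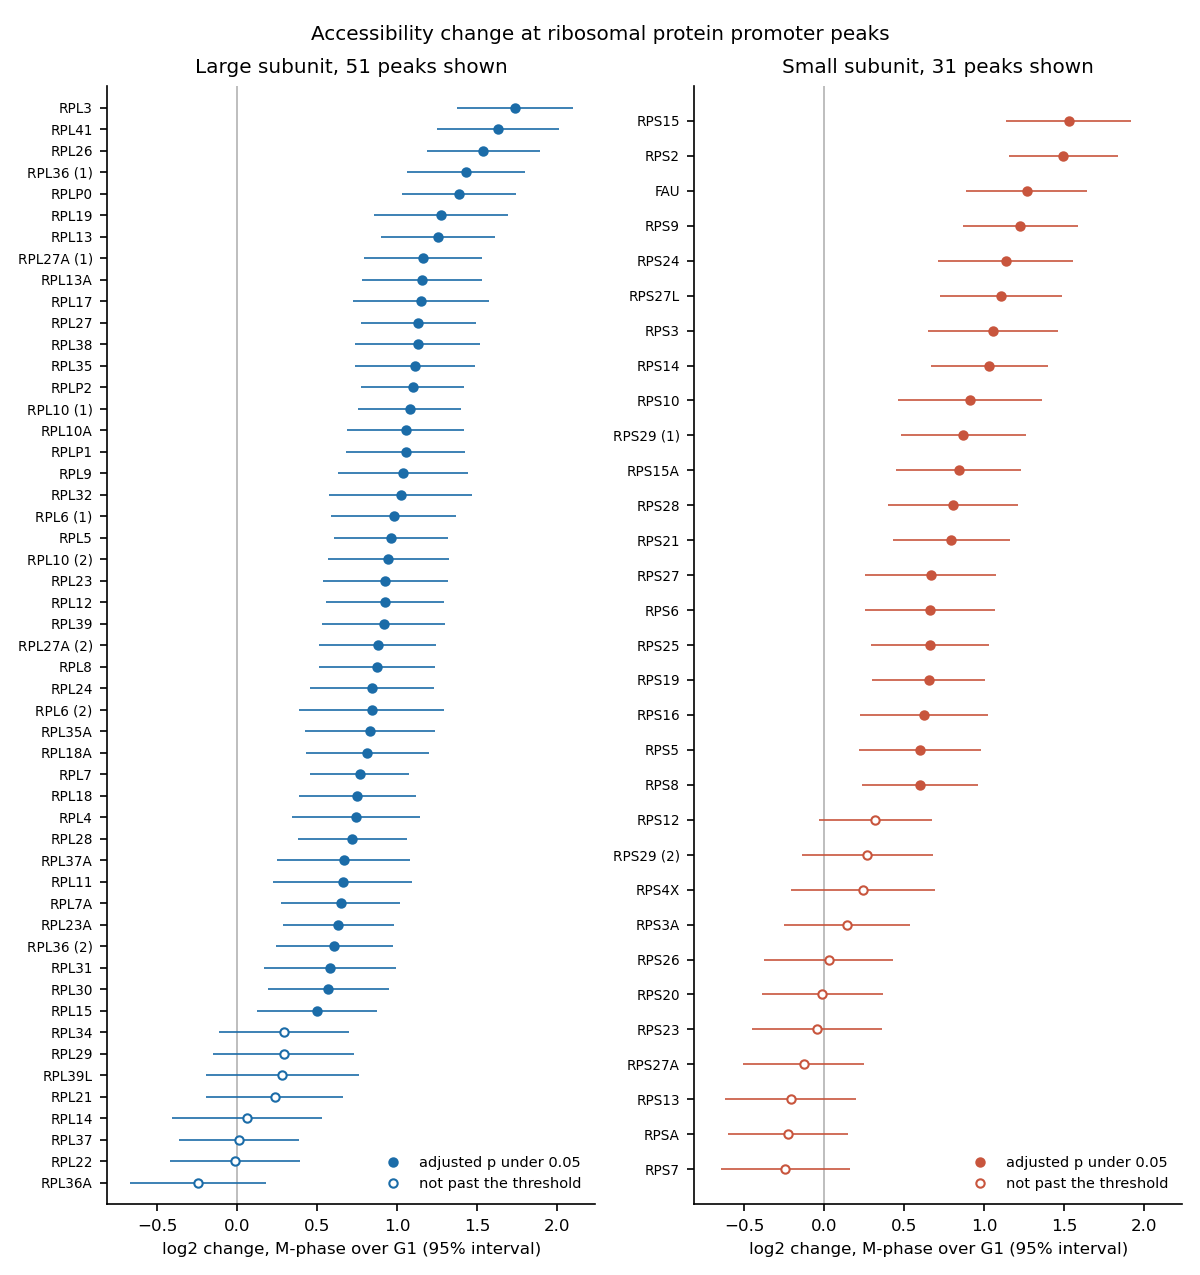
Log2 change, M-phase over G1, with its 95% interval from limma for 82 of the 84 member peaks (filled, adjusted p under 0.05; open, not past the threshold); for genes with 2 peaks, (1) is the one with the higher mean count. Changes run from -0.25 at RPL36A to 1.74 at RPL3, and no filled point lies below 0.

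The largest changes came from both subunits. RPL3, a core protein near the peptidyl transferase centre, had 167, 106 and 158 scaled counts in the G1 libraries and 399.6, 569 and 514 in the M-phase libraries at its peak (chr22:39714985-39716427). The phases did not overlap, and the fitted log2 change was 1.74 ± 0.18 (SE, n = 3 per phase, adjusted p = 8.34e-13). RPL41, which encodes a very short basic peptide of the large subunit, had at its peak (chr12:56509886-56510894) 108, 77.3 and 112 in G1 and 284, 321 and 361 in M-phase, a change of 1.63 ± 0.19 (SE, n = 3, adjusted p = 4.59e-11). RPL26 at the exit tunnel (peak chr17:8286141-8287314) had 145, 135 and 199 in G1 and 452, 499 and 469.6 in M-phase, a change of 1.54 ± 0.18 (SE, n = 3, adjusted p = 2.57e-11). The RPL26 peak also holds the TSS of another annotated protein-coding gene. In each of these 3 peaks the lowest M-phase library had more than 2 times the count of the highest G1 library.

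In the small subunit, RPS15, a protein of its head, rose most. Its peak (chr19:1438054-1439404) had 96.4, 77.3 and 74 scaled counts in G1 and 238, 259.6 and 259 in M-phase, a log2 change of 1.53 ± 0.20 (SE, n = 3, adjusted p = 8.76e-10). RPS2, which lines the mRNA entry channel (peak chr16:2014111-2015462), had 234, 204 and 181 in G1 and 489.8, 646 and 659.7 in M-phase, a change of 1.50 ± 0.17 (SE, n = 3, adjusted p = 1.83e-11). The 8 largest changes were completed by RPL36 at 1.43 ± 0.19, RPLP0 at 1.39 ± 0.18 and RPL19 at 1.27 ± 0.21 (SE, n = 3 per phase). The subunits differed in their counts, with 43 of 51 large-subunit peaks (84.3%, median log2 change 0.88) and 20 of 33 small-subunit peaks (60.6%, median 0.65) higher, a difference that was not tested.

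**Figure D3:**
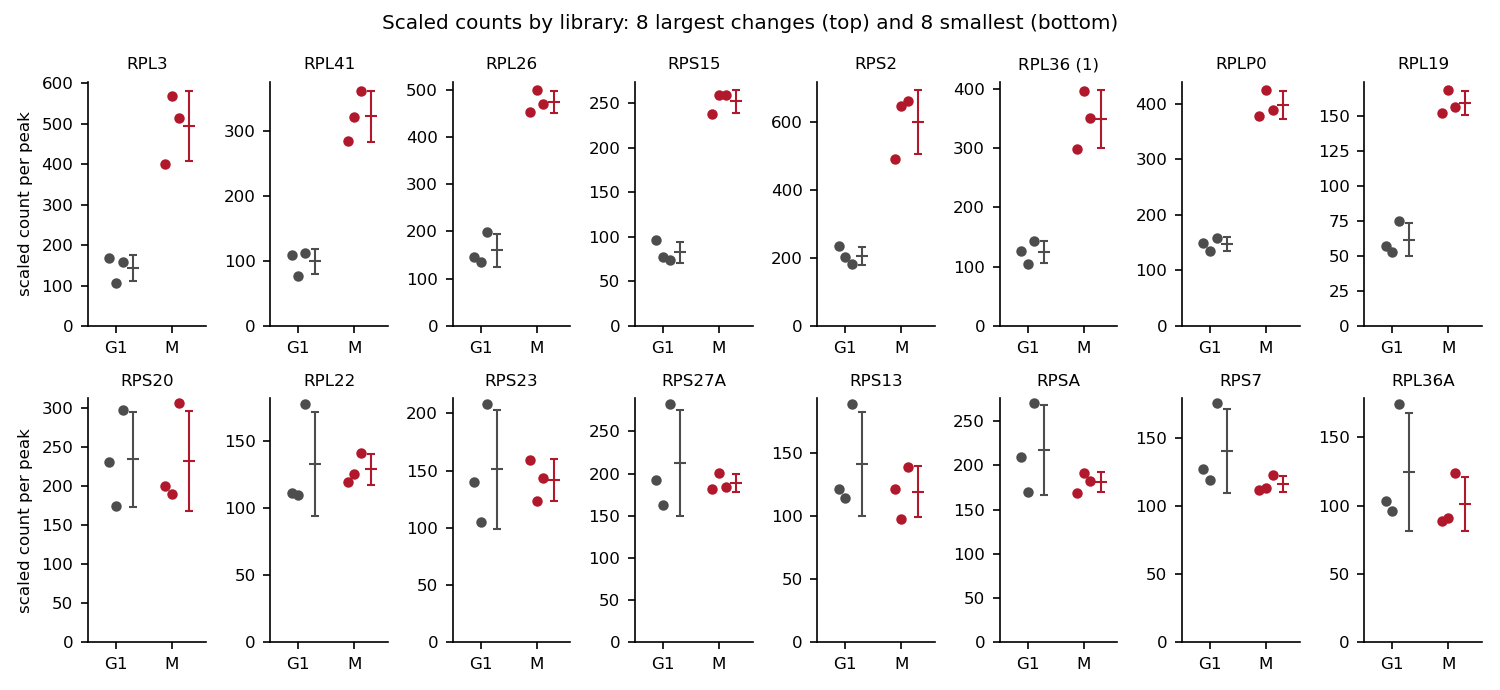
Scaled count per peak (y axis, from 0, own scale in each panel) in each of 3 G1 (grey) and 3 M-phase (red) libraries, with mean and SD to the right, for the 8 member peaks with the largest changes (top row) and the 8 with the smallest (bottom row). In the top row the phases do not overlap, and in the bottom row they do.

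The P stalk of the large subunit, which recruits translation factors, is built on RPLP0 by dimers of RPLP1 and RPLP2. RPLP0 had 149, 134 and 159 scaled counts in G1 and 379, 426 and 389.8 in M-phase, although 20.1% of the 36-base words in its peak occur elsewhere in the genome as well. RPLP2 was among the most accessible members in both phases, with 337, 293 and 307 in G1 and 599, 734 and 703 in M-phase (log2 change 1.10 ± 0.16, SE, n = 3, adjusted p = 5.20e-08), and its peak also holds the TSS of PIDD1. The RPLP2 change kept its direction under loess but not its call, at 0.26 (adjusted p = 0.065). RPLP1 rose from 144 ± 33.4 to 304 ± 43.2 (mean ± SD, n = 3), a log2 change of 1.05 ± 0.19 (SE, adjusted p = 5.04e-06).

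RPL5 and RPL11 bind the 5S ribosomal RNA and, when free, restrain the p53 ubiquitin ligase MDM2. RPL5 had 170, 161 and 225 scaled counts in G1 and 363, 372 and 359 in M-phase (log2 change 0.96 ± 0.18, SE, n = 3, adjusted p = 1.09e-05). RPL11 had 63.6, 57.8 and 82 in G1 and 88.6, 117 and 131 in M-phase (0.66 ± 0.22, SE, n = 3, adjusted p = 0.0160), and its call was lost with an equal total in peaks (0.34, adjusted p = 0.186) and without G1 replicate 2, M-phase replicate 2 or M-phase replicate 3 (adjusted p from 0.0692 to 0.111). Both rose, and their 95% intervals, 0.61 to 1.32 and 0.23 to 1.10, overlap.

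RPS3, RPSA and RPS6 belong to the small subunit and gave unlike values. RPS3, which lines the mRNA entry channel, had 102, 64.8 and 89 in G1 and 192, 155 and 206 in M-phase (log2 change 1.06 ± 0.21, SE, n = 3, adjusted p = 2.5e-05). RPS6, the target of the S6 kinases, rose from 116 ± 40.3 to 184 ± 27.1 (mean ± SD, n = 3; log2 change 0.66 ± 0.20, SE, adjusted p = 0.00885). Its lowest M-phase library, at 156, lay below G1 replicate 3, at 162, and its call was lost with equal totals (adjusted p = 0.136), with loess (0.172), without G1 replicate 1 (0.108) and without M-phase replicate 3 (0.0771). RPSA, also known as the laminin receptor precursor (peak chr3:39447763-39448964), had 210, 170 and 271 in G1 and 169, 192 and 182 in M-phase (-0.23 ± 0.19, SE, n = 3, adjusted p = 0.407). The 95% interval for RPSA, -0.60 to 0.15, lies below that for RPS3, 0.65 to 1.46.

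FAU and RPS27A are translated as fusions of a ubiquitin-like protein or ubiquitin with a small-subunit protein. The FAU peak (chr11:64889016-64890117), which also holds the TSS of the mitochondrial ribosomal protein gene MRPL49, had 97.4, 109 and 112 scaled counts in G1 and 256, 258 and 287 in M-phase, a log2 change of 1.27 ± 0.19 (SE, n = 3, adjusted p = 8.20e-08). The RPS27A peak, which also holds the TSS of CLHC1, had 192, 163 and 283 in G1 and 182, 201 and 184 in M-phase. Its change was -0.13 ± 0.19 (SE, n = 3, adjusted p = 0.680). The FAU libraries separated by phase and the RPS27A libraries did not.

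Mutations in several of these genes cause Diamond-Blackfan anaemia, a failure of red cell production. Of the 20 peaks of the listed disease genes, 16 were higher and 0 lower, with a median log2 change of 0.78, against 47 of 64 other members with a median of 0.83. RPS19, the gene most often affected (peak chr19:42363571-42365052), had 241, 192 and 326 in G1 and 337, 393 and 460.0 in M-phase, a change of 0.65 ± 0.18 (SE, n = 3, adjusted p = 0.00291) that did not hold with loess (-0.03, adjusted p = 0.906), with equal totals (0.31, adjusted p = 0.0686) or without M-phase replicate 3 (0.54, adjusted p = 0.0589). RPS26 was at 126 ± 22.7 in G1 and 128 ± 13.3 in M-phase (mean ± SD, n = 3), a change of 0.03 ± 0.20 (SE, adjusted p = 0.942) whose sign turned under TMM, equal totals and loess.

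Some ribosomal protein genes are copies of others, and several of these copies, though not all, are expressed in few tissues. RPL3L, the muscle copy of RPL3, had no peak at a TSS: its start lies in a gap of 14.9 kb between peaks. RPL10L, an intronless copy of RPL10 active in testis, lies in a gap of 1491 kb. RPS18 is expressed in all cells and also had no member peak, but the table has no peak at all over 2034 kb around it on chromosome 6, from 31325112 to 33359534, so that nothing can be said of its accessibility. RPL39L had the lowest mean count over the 6 libraries of all members, with 41.8, 39.1 and 85 in G1 and 67.6, 57.7 and 71.2 in M-phase (log2 change 0.28 ± 0.24, SE, n = 3, adjusted p = 0.425; -0.02 with equal totals). RPS27L, which is induced by p53, rose from 125 ± 29.9 to 276 ± 29.8 (mean ± SD, n = 3; log2 change 1.11 ± 0.19, SE, adjusted p = 2.42e-06).

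The 8 smallest changes had fitted values from -0.25 to -0.01, and none passed the test. RPL36A, whose peak (chrX:100645532-100646443) is shared with BTK, had 103, 96.1 and 174 scaled counts in G1 and 88.6, 91.1 and 124 in M-phase (-0.25 ± 0.21, SE, n = 3, adjusted p = 0.431). RPS7 had 127, 119 and 176 in G1 and 112, 113 and 123 in M-phase (-0.24 ± 0.20, SE, n = 3, adjusted p = 0.412), and RPS13 had 121, 114 and 189 in G1 and 122, 98.1 and 139 in M-phase (-0.21 ± 0.21, SE, n = 3, adjusted p = 0.502). In all of these, and in RPS27A and RPSA, G1 replicate 3 was the highest G1 library. Without it RPL36A, RPS13 and RPS27A came to 0.00, 0.01 and 0.09, while RPS7 and RPSA stayed negative at -0.08 and -0.06. RPS23, a protein of the decoding centre, came to -0.04, and RPL22 and RPS20 to -0.01 each, with intervals that reach from -0.45 at the lowest to 0.39 at the highest. With equal totals RPL36A (-0.58), RPS7 (-0.58), RPSA (-0.57), RPS13 (-0.54) and RPS27A (-0.47) were called lower. With loess RPSA (-0.72), RPS27A (-0.62), RPS20 (-0.56), RPS7 (-0.53), RPS13 (-0.50) and RPL7 (-0.31) were called lower together with RPL37 and RPS12.

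Per kb of peak, the members ranged from 43.4 to 264 scaled counts in G1 and from 75.7 to 443 in M-phase. The median over members was 105 per kb in G1 and 186 in M-phase, and over all promoter peaks 109 and 151. RPL7, which shares its peak with RDH10, stood at 264 per kb in G1 and 442 in M-phase, and its libraries held 520, 578 and 871 scaled counts in G1 and 991, 1055 and 1251 in M-phase (log2 change 0.77 ± 0.16, SE, n = 3, adjusted p = 5.22e-05), although it turned to -0.31 with loess (adjusted p = 0.00794). RPS2 reached 443 per kb in M-phase from 152 in G1, and RPLP2 431 from 198. The 5 members with the lowest mean count over all libraries were not all low per kb. The RPL6 peak at the canonical start (chr12:112846553-112847698) had 43.4 per kb in G1, the lowest of all members, and 82.8 in M-phase, and RPL39L had 71.7 and 85.0. RPS4X, the X-linked copy of RPS4, had 72.6 and 87.3 per kb, RPL29 had 76.6 and 95.8, and RPL14 had 168 and 178. The changes of these last 3 did not pass the test, at 0.24, 0.29 and 0.06, and each fell below 0 with equal totals. The RPL10 peak upstream of the canonical start (chrX:153616599-153619089), one of the 5 members with the highest counts, rose by 1.08 ± 0.16 (SE, n = 3, adjusted p = 1e-07), but its call was lost with loess (0.27, adjusted p = 0.0565), and 97.1% of its words are repeated.

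**Figure D4:**
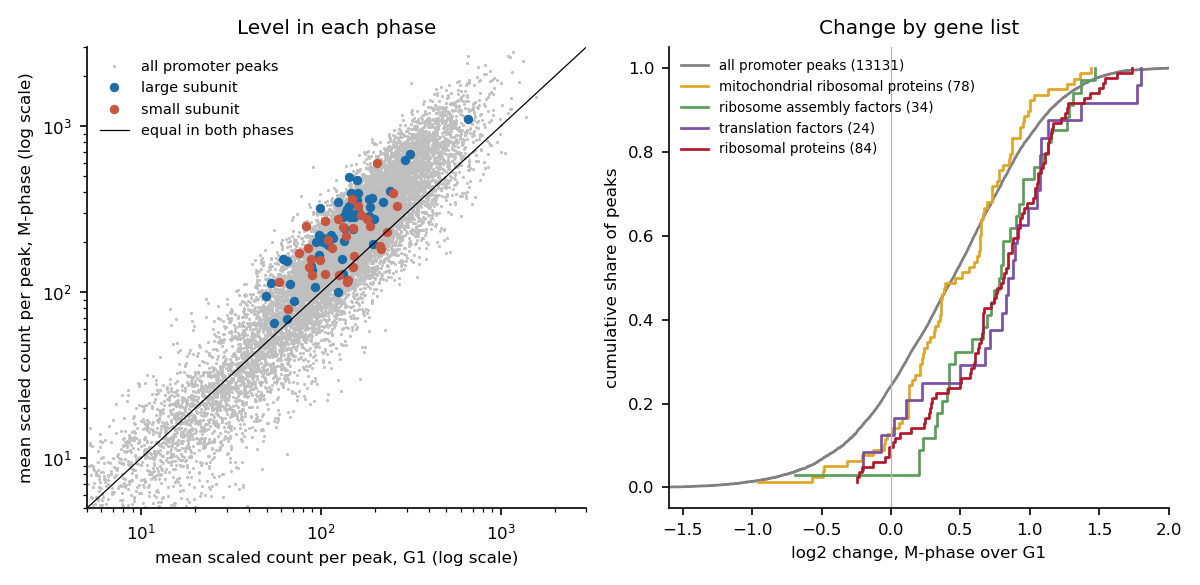
Left, mean scaled count per peak in M-phase against G1 (log scales) for all promoter peaks (grey) and members (blue, large subunit; red, small subunit), with the line of equality. Right, cumulative share of tested peaks against log2 change for 5 groups. The members (median 0.81) run close to translation factors and other genes with TOP mRNAs (0.86) and to ribosome assembly factors (0.79). They lie to the right of mitochondrial ribosomal proteins (0.49) and all promoter peaks (0.45).

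Other gene lists were read out in the same way. Of 24 peaks at TSSs of 20 translation factors and other genes with TOP mRNAs, 17 were higher (70.8%) and 0 lower. Their median log2 change was 0.86. The peak of EEF2, the elongation factor that moves the ribosome along the mRNA, changed by 1.77, and that of EEF1B2 by -0.21 (adjusted p = 0.464). Of 34 peaks of ribosome assembly factors, 24 were higher (70.6%) and 1 was lower (2.94%), with a median of 0.79. The lower peak was that of GAR1, a protein of the H/ACA particles that pseudouridylate rRNA, at -0.69 ± 0.21 (SE, n = 3, adjusted p = 0.00731). Mitochondrial ribosomal proteins, which build the ribosome of another compartment, had 38 higher (48.7%) and 3 lower peaks (3.85%) of 78 and a median of 0.49. That was near all promoter peaks, of which 47.1% were higher and 5.29% lower, with a median of 0.45. The differences between these lists and the members were not tested.

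Neighbouring members did not always move alike. RPS26 and RPL41 lie 73.6 kb apart on chromosome 12. The log2 ratio of the RPS26 to the RPL41 peak was 0.27, 0.35 and 0.35 in the G1 libraries and -0.95, -1.34 and -1.55 in the M-phase libraries, a comparison within each library that a scaling factor enters only through the pseudocount. The 2 phases did not overlap in this ratio. The pair was picked after its values were seen, and no test was made. Within genes, the RPL36 peak at its canonical start changed by 1.43 and the other peak, 8.52 kb upstream at the TSSs of HSD11B1L and MICOS13, by 0.61.

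The change varied with the base composition of the surroundings. Across the 84 members Spearman's rho between the log2 change and the GC content of the surrounding 100 kb was 0.41, against 0.05 with the GC content of the peak itself, and across 13122 promoter peaks the values were 0.22 and 0.06. These are correlations across sites that share the 6 libraries, and depth and base composition enter into each of them. Of the 21 members with the lowest regional GC content, up to 43.3%, 10 were higher and the median change was 0.32, and of the 21 with the highest, from 52.6%, 18 were higher and the median was 1.06. Of all promoter peaks in the same ranges, 38.2% and 59.4% were higher, with medians of 0.30 and 0.62. RPS23, RPS27A and RPS13 lie in the first range, and RPL3, RPS2 and RPS15 in the last. Several members did not follow, among them RPL22, with a regional GC content of 54.9% and a change of -0.01. Others were RPL29 (55.6%, change 0.29) and RPS27L (42.45%, change 1.11). RPL41 (49.6%) and RPL26 (47.1%), among the largest rises, lie between the 2 ranges. So do RPS7 (47.6%) and RPSA (44.6%), among the smallest changes. With the mean scaled count rho was 0.38 for members and 0.53 for promoter peaks. Under loess, which removes that relation to level, rho with regional GC was 0.29 for members and 0.23 for promoter peaks. Regional GC was examined after results were known, and its part in the change was not tested.

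**Figure D5:**
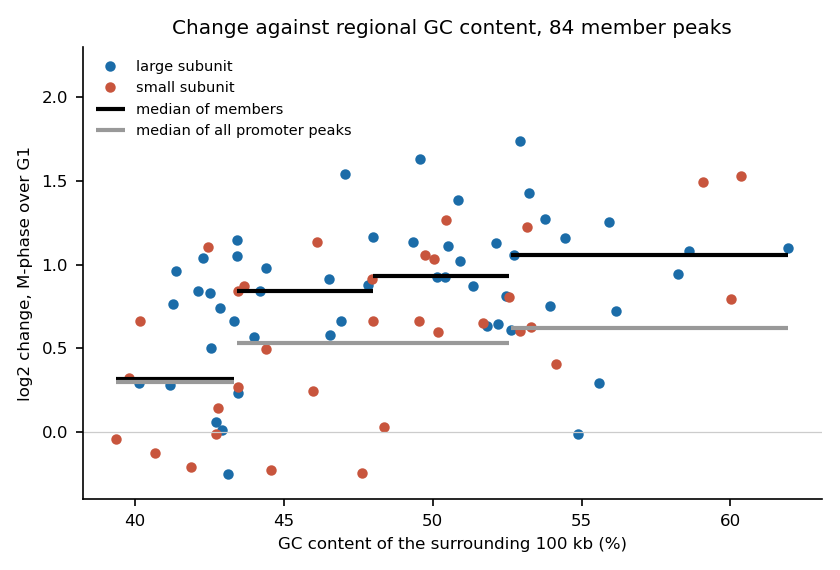
Log2 change against GC content of the surrounding 100 kb (percent) for 84 member peaks, with medians for 4 bins of 21 members (black) and of all promoter peaks in the same ranges (grey; the outer ranges are open-ended). The members' medians run from 0.32 in the lowest bin over 0.84 and 0.93 to 1.06 in the highest, those of all promoter peaks from 0.30 over 0.53 and 0.53 to 0.62.

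The members were also read out by the sequence elements at the start. For these elements each gene entered with the peak at its canonical start, 79 in total. For RPL6, RPL10 and RPL27A that is the weaker peak. The 48 members with a TCT initiator in the promoter had a median log2 change of 0.78 with 36 higher, and the 31 without had 0.82 with 23 higher. With and without the ETS motif the medians were 0.82 and 0.79, and with and without the YY1 motif 0.81 and 0.82. The CCAAT box went with a median of 1.05 in 26 members, 21 of them higher, against 0.74 in 53 without, 38 of them higher. The NRF1 motif occurred in 11 members with a peak, all higher, with a median of 0.96 against 0.76 without, where 48 of 68 were higher. The E box occurred in 5 members, all higher, namely RPL13A, RPL19, RPL23, RPS2 and RPS28. Their median was 1.16 against 0.76 without, where 54 of 74 were higher. TATAAA occurred in 3 members with a peak, all higher, namely RPLP0, RPS2 and RPS28. Their median was 1.39 against 0.78 without, where 56 of 76 were higher. Of the 79 members at a canonical start 74.7% were higher, against 75.0% of all members and 47.1% of all promoter peaks. RPS2 and RPS28 hold both the E box and TATAAA. These groups were not tested. Of members in genes that host a small nucleolar RNA in an intron, 22 of 31 were higher (median 0.88), and of the others 41 of 53 (median 0.79). Where the peak also held the TSS of another protein-coding gene 19 of 23 were higher (median 0.75), and where it held none 44 of 61 (median 0.84).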

How the data were processed

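Per the study's methods and labels, the authors' steps were adapter removal (cutadapt), trimming of the last base, mapping to hg19 with Bowtie (QuasR), where reads with up to 3 locations were placed once, removal of mitochondrial reads (SAMtools), and broad peak calling from pooled replicates (MACS2). Versions, and whether read ends were shifted for Tn5, are not given in the sources used here. The deposited signal is the number of reads per peak after the authors' division by library size relative to the smallest library, with 1 decimal. Their own log2 comparison of the phases, whose sign is opposite to that of the value columns as named, and its SD were left unused. The number of unused columns of per-sample values was 0.

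As planned, log2(scaled count + 8) was modelled by limma 3.58.1 (R 4.3.3, mean-variance trend, Benjamini-Hochberg over all peaks tested) for 3 G1 and 3 M-phase libraries without covariates, using 73121 of 129347 peaks that reached 10 (rescaled to a median library) in 3 or more libraries and a total of 15 or more. Fold changes on this scale understate changes of low peaks. The fit was tested on simulated data with equal totals only, not with the authors' scaling used for the reported calls. Summaries used Python 3.11.15, pandas 2.3.3, numpy 2.4.6 and scipy 1.17.1. Motifs and GC content were read from GRCh37. A word was called repeated when its 36 bases occur more than once there. The chromatin fraction and input samples were not used.

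Members and lists were chosen with earlier results of these data known. Peaks were named by rule: any called lower, the 8 largest and 8 smallest changes, the 5 highest and 5 lowest mean counts, fixed examples of each role, and genes without a peak. A gene with 2 peaks was given by its stronger one unless stated. RPL13A, RPL23, RPL37, RPS12, RPS28, EEF2, EEF1B2 and GAR1 were named after their values were seen. The separate values of 2 members are not reported here, though they enter all counts and medians. Alternatives were other scalings, filters and pseudocounts, a replicate block, each library left out, and narrower definitions of members. Depth limits precision through the fitted standard errors, 0.16 to 0.24 for members.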

Additional observations from a re-analysis of the deposited data

How the results depend on the processing

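The count of higher members stayed within 1.5 times the reported 63 in every alternative but the trended loess normalization, which gave 38. Lower members numbered 5 with an equal total in peaks and 8 with loess, against 0 elsewhere. The median change moved to 0.48 and 0.38 in these settings. Leaving out each library in turn gave 52 to 67 higher and 0 lower members, medians of 0.70 to 0.89 and an excess over all promoter peaks of 0.31 to 0.36. The replicate block left 63 higher and 0 lower. The shares of all promoter peaks called with a library left out or with the block were not counted. Deviations of same-numbered libraries from their phase means correlated at 0.00594, -0.0101 and 0.0284, so that no shared deviation was seen. The best M-phase match had the same number for G1 replicates 1 and 3 and another for replicate 2. These values cannot show whether same-numbered samples were prepared together. With 1 peak per gene 59 of 79 members were higher, with at most 10% repeated words 52 of 69, and without another gene's TSS 44 of 61. These 3 counts are from the reported fit, in which 47.1% of all promoter peaks were higher.

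Named peaks changed sign as follows. TMM gave -0.06 for RPL14 and -0.10 for RPS26. Equal totals gave -0.03 for RPL29, -0.02 for RPL39L, -0.07 for RPS4X, -0.25 for RPL14 and -0.30 for RPS26. Loess gave -0.31 for RPL7, -0.03 for RPS19 and -0.26 for RPS26. With a library left out, RPL14 ranged from -0.12 to 0.30, RPS26 from -0.12 to 0.13, RPS20 from -0.22 to 0.17, RPL22 from -0.13 to 0.20, RPS23 from -0.26 to 0.20, RPS27A from -0.29 to 0.09, RPS13 from -0.34 to 0.01 and RPL36A from -0.40 to 0.00. The causes were not tested. The edgeR test on recovered reads was not run, because whole reads could not be recovered for all M-phase libraries.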
